A study of Mus musculus with 9 samples.

Results

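The aminoacyl-tRNA synthetases, the enzymes that load each transfer RNA with its amino acid, were followed across 3 groups of mouse CD4+ T cells. Genes were taken by name, as every row whose symbol has the form of a single-letter amino acid code followed by "ars", with or without a final 1 or 2, together with Eprs, Farsa and Farsb. This gave 37 of the 14912 rows in the table, namely 20 genes for cytosolic enzymes and 17, with names ending in 2, for mitochondrial ones. Symbols follow the older mouse nomenclature of the table. All 37 passed the filter on low values, and their chromosomes matched those of GENCODE M21 on GRCm38.

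Protein synthesis needs a charged tRNA for every amino acid, so these enzymes stand at the entry to translation, and activated T cells are known to raise their capacity for translation as they grow and divide. The cytosolic enzymes charge the tRNAs that serve nuclear-encoded messages, and the mitochondrial enzymes, also encoded in the nucleus, charge the tRNAs used to translate the few proteins encoded in mitochondrial DNA. Gars and Kars each give rise to both a cytosolic and a mitochondrial form. Many cytosolic synthetase genes are known targets of ATF4, a transcription factor whose translation rises when amino acids run short or proteins misfold.

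The mTO-iTreg cells were eGFP-positive cells sorted after 5 days of co-culture with organoids grown from mouse colorectal cancer, with IL-2 at 20 U/ml and anti-CD3 and anti-CD28 at 1 µg/ml each. No added TGFβ is listed for them. The TGFβ-iTreg cells were eGFP-positive cells after 5 days with TGFβ at 10 ng/ml, IL-2 at 300 U/ml and the same antibodies. The day 0 cells were eGFP-negative CD4+ T cells before culture. Every group had 3 libraries, and all cells came from mice of the strain B6.Cg-Foxp3tm2(EGFP)Tch/J, hemizygous for Foxp3<tm2Tch>, in which eGFP reports Foxp3, the gene of the regulatory T cell transcription factor. The labels give no age for the mice and do not say whether animals were pooled or how many organoid lines were used. The iTreg groups differ in organoids, TGFβ and IL-2 dose at once, and both differ from day 0 in time, activation and the eGFP sort, so these cannot be told apart.

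RNA was read by a modified CEL-Seq method, which counts tags near the 3′ ends of transcripts. The mTO-iTreg libraries held 7551177 to 7969853 counts, the TGFβ-iTreg libraries 2078223 to 9944952 and the day 0 libraries 2267922 to 5328169. Values are normalized counts, and a single count was worth 0.494 to 2.69 of them. Library names in the labels have one form in the mTO-iTreg group and another in both other groups, and no batch or date is stated. Anything that goes with the form of the name cannot be told apart from the mTO-iTreg group in either of its comparisons. T cell markers were strong throughout: 7 of 8 listed genes were in the table, with sums of 19044 to 23154 in mTO-iTreg, 16379 to 17934 in TGFβ-iTreg and 26449 to 28732 in day 0 libraries. Single markers were not level. Against day 0, 2 of the 7 were higher and the rest lower in mTO-iTreg cells, from 0.423-fold (Lck) to 2.25-fold (Cd2). All 7 were lower in TGFβ-iTreg cells, from 0.410-fold (Cd4) to 0.745-fold (Cd2). Foxp3 was at 37.2 to 81.0, 14.8 to 19.7 and 0 to 8.77 normalized counts in mTO-iTreg, TGFβ-iTreg and day 0 libraries. Its mTO-iTreg mean was 3.80-fold the TGFβ-iTreg mean. The other regulatory T cell markers listed, eGFP, Il2ra and Ctla4, went the other way, at 0.525-fold, 0.657-fold and 0.939-fold. Of these 4 differences between the iTreg groups, 0 passed the limma test at an adjusted p under 0.05. Summed, the 4 markers were at 3330 to 3837 in mTO-iTreg, 4504 to 6368 in TGFβ-iTreg and 212 to 722 in day 0 libraries. Separate animals or cultures are not recorded for the replicates, so the p-values reflect no more than the spread among these libraries, which may be technical.

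Cytosolic synthetase genes were higher in mTO-iTreg cells than in day 0 cells. Of 20, 14 rose, 0 fell and 6 did not pass the test, where a gene is called changed at an adjusted p under 0.05 (limma, Benjamini-Hochberg adjustment over 10983 genes). Of all genes tested, 19.4% were called higher in this comparison and 33.9% were called in either direction. The median log2 difference was 0.84 for cytosolic genes, against 0.09 for all genes tested. The 14 were Aars, Cars, Eprs, Gars, Iars, Kars, Mars, Nars, Qars, Sars, Tars, Vars, Wars and Yars, which together charge with alanine, cysteine, glutamate, proline, glycine, isoleucine, lysine, methionine, asparagine, glutamine, serine, threonine, valine, tryptophan and tyrosine. In bulk samples, a change in RNA per cell cannot be told apart from a change in which cells are present.

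Vars, the valine enzyme (chromosome 17, 35000987 to 35016322, plus strand), differed most. It had 624, 600.5 and 876 normalized counts in mTO-iTreg libraries, 320, 337 and 278 in TGFβ-iTreg libraries, and 84.2, 159 and 132 in day 0 libraries. The 3 groups did not overlap, with TGFβ-iTreg cells between the others. The mean was 5.60-fold that of day 0 in mTO-iTreg cells (log2 difference 2.50 ± 0.24 SE, limma adjusted p = 4.75e-06, n = 3 each).

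Cars, the cysteine enzyme (chromosome 7, 143557230 to 143600090, minus strand), had 289, 415 and 362 normalized counts in mTO-iTreg libraries, 125, 87.5 and 107 in TGFβ-iTreg libraries, and 98.2, 86.0 and 65.4 in day 0 libraries. The mTO-iTreg libraries stood above all others, while TGFβ-iTreg and day 0 libraries overlapped. The mean was 4.27-fold that of day 0 (log2 difference 2.08 ± 0.25 SE, limma adjusted p = 3.63e-05). A stretch of 175 bases near the 3′ end of Cars is also found in a processed pseudogene, Gm15580, which is not a row of the table.

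Aars, the alanine enzyme (chromosome 8, 111033144 to 111057664, plus strand), had 620.0, 949.7 and 696 normalized counts in mTO-iTreg libraries, 376, 334 and 338 in TGFβ-iTreg libraries, and 212, 255 and 209 in day 0 libraries. Its groups were separate, in the same order as for Vars, and its mean was 3.35-fold that of day 0 in mTO-iTreg cells (log2 difference 1.72 ± 0.18 SE, limma adjusted p = 1.25e-05). The annotated 3′ end of Aars overlaps Exosc6 on the same strand. The last 500 bases of a coding Aars transcript are 100% identical to Exosc6, so reads there cannot be told apart even with strand. Exosc6 itself was called in no comparison and had means of 75.8, 122 and 97.4 in mTO-iTreg, TGFβ-iTreg and day 0 cells. Its groups did not overlap in any comparison. Between the iTreg groups (log2 difference -0.68 ± 0.26 SE, limma adjusted p = 0.0688) it was called lower in mTO-iTreg cells under 4 of 22 alternatives.

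Mars, the methionine enzyme (chromosome 10, 127296221 to 127311786, minus strand), had 293, 368 and 348 normalized counts in mTO-iTreg libraries, 116, 141 and 136 in TGFβ-iTreg libraries, and 91.2, 91.4 and 156 in day 0 libraries. It averaged 2.98-fold the day 0 mean (log2 difference 1.61 ± 0.25 SE, limma adjusted p = 0.000246), with no overlap between mTO-iTreg and other libraries. The end of Mars overlaps that of Ddit3 on the opposite strand, and whether counting used strand is not known. Ddit3, which encodes a stress transcription factor, had means of 419, 80.8 and 93.9 in mTO-iTreg, TGFβ-iTreg and day 0 cells, and without strand, reads of the pair cannot be told apart.

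Wars, the tryptophan enzyme (chromosome 12, 108860030 to 108894174, minus strand), is known as a gene induced by interferon. It had 125, 218 and 312 normalized counts in mTO-iTreg libraries, 369, 191 and 333 in TGFβ-iTreg libraries, and 78.9, 67.2 and 76.0 in day 0 libraries. Both iTreg groups lay above day 0 and overlapped each other. The means were 2.95-fold that of day 0 in mTO-iTreg cells (log2 difference 1.46 ± 0.33 SE, limma adjusted p = 0.00371) and 4.02-fold in TGFβ-iTreg cells (1.94 ± 0.33 SE, limma adjusted p = 0.00121).

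Yars, Iars and Sars, for tyrosine, isoleucine and serine, completed the 8 largest log2 differences. Yars (chromosome 4, 129189760 to 129219607, plus strand) had 177, 332 and 256 normalized counts in mTO-iTreg libraries, 145, 93.6 and 84.0 in TGFβ-iTreg libraries, and 175, 64.5 and 105 in day 0 libraries. The lowest mTO-iTreg library and the highest day 0 library were almost level, and the call (log2 difference 1.21 ± 0.36 SE, limma adjusted p = 0.0188) was lost without mTO-iTreg replicate 2 (adjusted p = 0.080), mTO-iTreg replicate 3 (0.053) or day 0 replicate 2 (0.079). Iars (chromosome 13, 49682100 to 49734267, plus strand) had 166, 257 and 256 in mTO-iTreg libraries, 88.5, 67.1 and 84.5 in TGFβ-iTreg libraries, and 104, 91.4 and 111 in day 0 libraries. Its mTO-iTreg libraries were all above the rest (log2 difference from day 0 1.12 ± 0.26 SE, limma adjusted p = 0.00467), and 495 bases of its 3′ end are 96.6% identical to the pseudogene Gm4849, not a row of the table. Sars (chromosome 3, 108424865 to 108445209, minus strand), with the highest mean normalized count of the 37, had 1480.0, 1357 and 1097 in mTO-iTreg libraries, 777, 633 and 548 in TGFβ-iTreg libraries, and 681, 774 and 447 in day 0 libraries. The mTO-iTreg libraries did not overlap the others, and the mean was 2.07-fold that of day 0 (log2 difference 1.07 ± 0.20 SE, limma adjusted p = 0.00117).

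The other 6 cytosolic genes that rose had smaller differences. Eprs, a fused glutamate and proline enzyme, averaged 981 ± 262 normalized counts in mTO-iTreg and 491 ± 67.6 in day 0 cells (SD, n = 3 each), 2.00-fold. Nars (asparagine), Gars (glycine) and Tars (threonine) were 1.83-fold, 1.79-fold and 1.73-fold the day 0 mean. Qars (glutamine) and Kars (lysine) were 1.51-fold and 1.49-fold, and neither call held in every leave-one-out fit. Qars lost its call without mTO-iTreg replicate 2 (limma adjusted p = 0.066) or day 0 replicate 2 (0.071), and with limma-voom (0.078). Kars lost it without mTO-iTreg replicate 2 (limma adjusted p = 0.089), mTO-iTreg replicate 3 (0.122), day 0 replicate 1 (0.051) or day 0 replicate 2 (0.126). The Kars call also ended with TMM factors (limma adjusted p = 0.051), the 2 groups fitted alone (0.054), no variance trend (0.084) or limma-voom (0.122).

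The 6 cytosolic genes with no call against day 0 were Dars, Farsa, Farsb, Hars, Lars and Rars. Dars, the aspartate enzyme, had 499.9, 480.1 and 490.2 normalized counts in mTO-iTreg libraries, against 709, 634 and 699 in day 0 libraries. Those groups did not overlap, and its log2 difference of -0.47 ± 0.18 SE had a limma adjusted p of 0.0529. It passed without TGFβ-iTreg replicate 1 (adjusted p = 0.032) or 3 (0.029), libraries that enter this comparison only through the shared estimate of spread. Dars was also called lower with TMM factors (limma adjusted p = 0.034), with the 2 groups fitted alone (0.026) and with limma-voom (0.021). Of 22 alternatives 6 called it, and the limma adjusted p ranged from 0.021 to 0.292. Lars, the leucine enzyme, averaged 271 ± 44.2 in mTO-iTreg and 280.0 ± 53.6 in day 0 cells (SD, n = 3 each), a log2 difference of -0.04 ± 0.23 SE. Farsa and Farsb encode the α and β subunits of the phenylalanine enzyme, and their means were 1.19-fold and 1.30-fold those of day 0. Hars (histidine) and Rars (arginine) were at 0.743-fold and 0.922-fold.

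**Figure D1:**
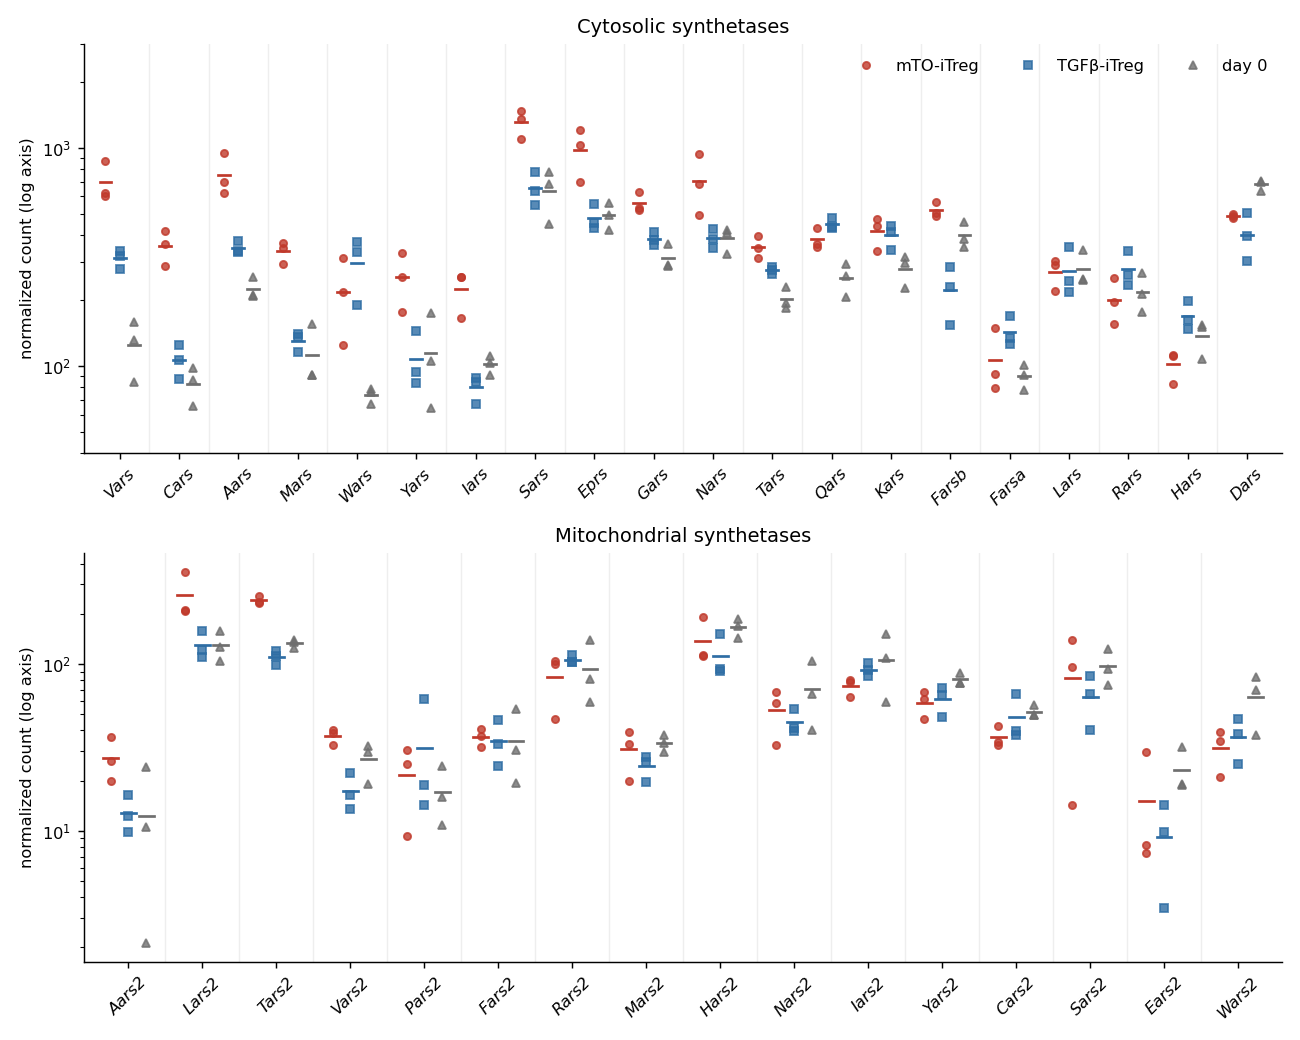
Normalized counts (log axis) of the 20 cytosolic genes (top) and 16 mitochondrial genes (bottom), ordered by the log2 difference of mTO-iTreg from day 0. Points are libraries of mTO-iTreg, TGFβ-iTreg and day 0 cells from left to right within a gene, and horizontal lines are means of 3; for Vars, Cars, Aars and Mars every mTO-iTreg library lies above all others.

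Groupings by known enzyme features were set beside these calls. Among 13 cytosolic genes commonly listed as ATF4 targets, 12 rose in mTO-iTreg against day 0, with a median log2 difference of 1.12, and the exception was Lars. Among the other 7 cytosolic genes, 2 rose (Kars and Qars), with a median of 0.20. The list was drawn up from general knowledge with earlier results of these data known, so it is not independent evidence. By catalytic fold, 7 of 9 class I genes and 6 of 10 class II genes rose, and Eprs, which holds an active site of each class, rose too. Of the 8 genes of the multi-synthetase complex, a cytosolic assembly of synthetases around scaffold proteins, 5 rose, and of the 12 outside it 9 rose. Of all genes tested, 19.4% rose in this comparison. Whether the groupings differ from one another was not tested.

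Promoter windows of 300 bases (250 before to 50 after the start, RefSeq on GRCm38.p6) were available for 27 of the 37 genes, and the cytosolic genes Cars, Hars, Lars, Nars, Rars, Vars and Wars were among those with none. The motif TGATGNAA, a C/EBP-ATF composite element of the kind that ATF4 can bind, was searched on both strands. It was present in 5 of 13 cytosolic windows, in 0 of 14 mitochondrial genes with a window, and in 3.97% of all 32851 windows. The 5 genes, Aars, Gars, Iars, Tars and Yars, were all called higher in mTO-iTreg than in day 0 cells, but so were Eprs, Kars, Mars, Qars and Sars, whose windows hold no match. Their windows are printed in the direction of transcription with the match in capitals, because they show where the element lies. In Aars, Gars, Iars and Tars the match lies on the opposite strand, so the capitals there are its reverse complement.
Aars (chr8:111033592-111033891, plus strand): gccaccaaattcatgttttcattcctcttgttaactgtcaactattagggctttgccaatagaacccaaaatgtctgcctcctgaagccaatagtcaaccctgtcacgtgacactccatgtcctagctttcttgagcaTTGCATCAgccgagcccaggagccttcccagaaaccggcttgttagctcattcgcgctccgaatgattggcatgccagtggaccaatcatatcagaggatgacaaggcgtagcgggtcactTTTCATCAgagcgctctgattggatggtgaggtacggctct
Gars (chr6:55037751-55038050, plus strand): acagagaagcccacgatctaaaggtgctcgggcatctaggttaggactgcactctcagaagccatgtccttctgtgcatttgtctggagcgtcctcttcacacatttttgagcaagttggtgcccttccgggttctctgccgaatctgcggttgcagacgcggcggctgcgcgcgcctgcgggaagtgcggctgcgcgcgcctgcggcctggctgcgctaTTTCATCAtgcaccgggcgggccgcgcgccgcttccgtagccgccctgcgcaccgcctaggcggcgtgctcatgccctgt
Iars (chr13:49681880-49682179, plus strand): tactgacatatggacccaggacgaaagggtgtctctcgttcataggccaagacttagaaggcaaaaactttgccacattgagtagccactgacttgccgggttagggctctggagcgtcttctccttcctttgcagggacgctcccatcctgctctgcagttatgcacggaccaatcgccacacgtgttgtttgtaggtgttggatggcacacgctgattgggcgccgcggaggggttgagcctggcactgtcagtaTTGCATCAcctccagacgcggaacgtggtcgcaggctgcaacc
Tars (chr15:11399609-11399908, minus strand): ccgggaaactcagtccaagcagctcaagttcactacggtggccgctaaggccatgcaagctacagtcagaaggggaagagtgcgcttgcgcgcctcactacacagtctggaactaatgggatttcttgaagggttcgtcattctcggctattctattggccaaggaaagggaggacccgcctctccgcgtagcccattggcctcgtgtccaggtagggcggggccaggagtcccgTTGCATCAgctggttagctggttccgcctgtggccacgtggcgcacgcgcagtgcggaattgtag
Yars (chr4:129189653-129189952, plus strand): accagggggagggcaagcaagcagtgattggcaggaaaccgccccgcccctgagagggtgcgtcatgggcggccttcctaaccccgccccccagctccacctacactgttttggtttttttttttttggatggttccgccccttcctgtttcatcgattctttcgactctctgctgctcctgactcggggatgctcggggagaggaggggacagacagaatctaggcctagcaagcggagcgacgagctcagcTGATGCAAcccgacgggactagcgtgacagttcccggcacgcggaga

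Positions are counted from the RefSeq start site of each window, which is base 0. The composite match begins at -112 and again at 9 in Aars, and at -30 in Gars. In Iars, Tars and Yars it begins at 7, -15 and 3. The RefSeq site is not always the GENCODE gene start given above. The Aars window begins at 111033592, inside the GENCODE gene, which starts at 111033144. The Yars match also lies inside the GENCODE gene, which starts at 129189760, upstream of base 0. The E-box CACGTG, a site for MYC and related factors that reads the same on both strands, was in 4 of 13 cytosolic windows (Aars, Farsb, Iars and Tars), in 1 of 14 mitochondrial genes with a window (Ears2), and in 7.15% of all windows. Matches of the motifs overlapped in 0 of these windows. A match in these letters is a description of the window, and binding was not measured.

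In TGFβ-iTreg cells the cytosolic genes went both ways against day 0. Of 20, 4 rose (Aars, Qars, Vars and Wars), 2 fell (Dars and Farsb) and 14 did not pass the test. In this comparison 18.6% of all genes tested were called, 9.78% higher and 8.8% lower. The median log2 difference of the cytosolic genes was 0.30, against -0.02 for all genes. Both comparisons with day 0 share the day 0 libraries, and the 4 genes that rose here are among the 14 that rose in mTO-iTreg cells.

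Qars (chromosome 9, 108507706 to 108515941, plus strand) had 353, 431 and 363 normalized counts in mTO-iTreg libraries, 433, 429 and 479 in TGFβ-iTreg libraries, and 258, 207 and 294 in day 0 libraries. Both iTreg groups lay above day 0. The TGFβ-iTreg mean was 1.77-fold that of day 0 (log2 difference 0.83 ± 0.18 SE, limma adjusted p = 0.0055). Vars was 2.50-fold day 0 (1.36 ± 0.24 SE, limma adjusted p = 0.00154). Aars was 1.55-fold (0.63 ± 0.18 SE, limma adjusted p = 0.0287), a call lost without any 1 of TGFβ-iTreg replicates 1, 2 and 3 (adjusted p = 0.092, 0.059 and 0.063) or day 0 replicates 1 and 3 (0.080 and 0.076). The Aars call also ended with limma-voom (limma adjusted p = 0.089) or no variance trend (0.090).

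Dars (chromosome 1, 128363707 to 128417368, minus strand) had 502, 395 and 304 normalized counts in TGFβ-iTreg libraries, all below the day 0 libraries, and a mean 0.588-fold that of day 0 (log2 difference -0.79 ± 0.18 SE, limma adjusted p = 0.0069). Farsb (chromosome 1, 78417975 to 78488897, minus strand) had 486, 501 and 564 in mTO-iTreg libraries, 155, 286 and 231 in TGFβ-iTreg libraries, and 382, 459.7 and 351 in day 0 libraries. The TGFβ-iTreg libraries were the lowest and the mTO-iTreg libraries the highest, with no overlap. Its fall in TGFβ-iTreg cells (log2 difference -0.86 ± 0.21 SE, limma adjusted p = 0.0133) was not called without TGFβ-iTreg replicate 1 (adjusted p = 0.054), the shallowest library of that group, or day 0 replicate 2 (0.053). Nor was the Farsb fall called with equal totals (limma adjusted p = 0.063), limma-voom (0.055) or no variance trend (0.064). Farsa, its partner subunit, had 1.59-fold the day 0 mean with no call (0.66 ± 0.29 SE, limma adjusted p = 0.136).

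Set directly against TGFβ-iTreg cells, mTO-iTreg cells had 11 of 20 cytosolic genes higher (Aars, Cars, Eprs, Farsb, Gars, Iars, Mars, Nars, Sars, Vars and Yars), 1 lower (Hars) and 8 without a call. Of all genes tested 26.6% were called, 14.9% higher and 11.8% lower. The median log2 difference was 0.69 for cytosolic genes and 0.13 for all genes. Called higher against both TGFβ-iTreg and day 0 cells were 10 cytosolic genes, that is, all of the 11 but Farsb. Of the 13 genes on the ATF4 list 10 were higher, and of the other 7, 1 was higher and 1 lower.

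The largest of these differences were those of Cars (log2 difference 1.73 ± 0.25 SE, limma adjusted p = 0.000252), Iars (1.47 ± 0.26 SE, limma adjusted p = 0.00108), Mars (1.35 ± 0.25 SE, limma adjusted p = 0.00133) and Farsb (1.25 ± 0.21 SE, limma adjusted p = 0.000871). Their means in mTO-iTreg cells were 3.33-fold, 2.82-fold, 2.57-fold and 2.31-fold those in TGFβ-iTreg cells. Yars was 2.37-fold (limma adjusted p = 0.0218), a call lost without mTO-iTreg replicate 2 (adjusted p = 0.088) or 3 (0.060) or TGFβ-iTreg replicate 2 (0.065) or 3 (0.079). Hars, at 102 ± 16.6 normalized counts in mTO-iTreg and 170.2 ± 26.1 in TGFβ-iTreg cells (SD, n = 3 each), was called at a limma adjusted p of 0.0471, a call lost with the removal of each of 8 libraries in turn, up to 0.156, and kept without day 0 replicate 2 (0.035). Gars lost its call (limma adjusted p = 0.0243) without mTO-iTreg replicate 3 (0.093), TGFβ-iTreg replicate 2 (0.079) or TGFβ-iTreg replicate 3 (0.063). The Gars call also ended with TMM factors (limma adjusted p = 0.073) or no variance trend (0.065). Nars lost its call (limma adjusted p = 0.011) without mTO-iTreg replicate 2 (0.0503).

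**Figure D2:**
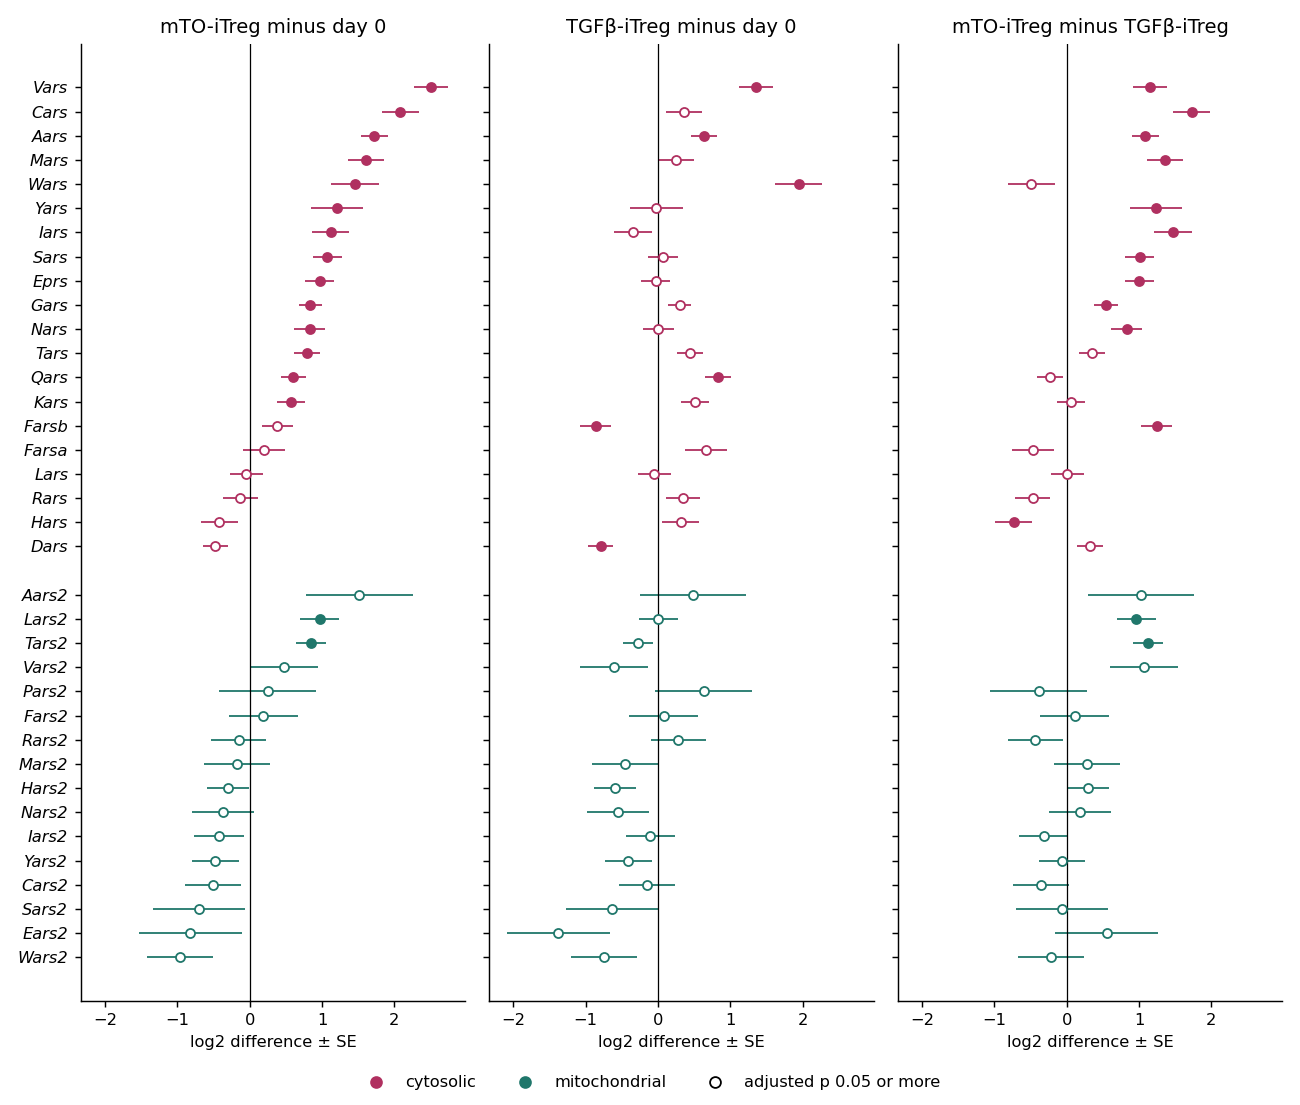
Log2 difference ± SE of 20 cytosolic genes (above) and 16 mitochondrial genes (below) in the 3 comparisons, each block ordered by mTO-iTreg minus day 0. Filled points have a limma adjusted p under 0.05; 14 cytosolic points are filled on the positive side in the left panel, 4 in the middle and 11 in the right.

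Of 17 mitochondrial synthetase genes, 2 rose in mTO-iTreg cells against day 0 (Lars2 and Tars2) and 0 fell, where 19.4% of all genes tested rose and 14.5% fell. In TGFβ-iTreg cells against day 0, 0 of 17 were called, where 9.78% of all genes rose and 8.8% fell. Lars2 and Tars2 were also higher in mTO-iTreg than in TGFβ-iTreg cells, where 14.9% of all genes were higher and 11.8% lower. The median log2 differences were -0.18, -0.28 and 0.19 in these comparisons, and that against day 0 in mTO-iTreg cells became 0.04 with equal totals, while that between the iTreg groups became -0.09 with quantile normalization. Single libraries moved them too. The median against day 0 in mTO-iTreg cells was 0.07 without mTO-iTreg replicate 1, -0.32 without mTO-iTreg replicate 2 and -0.10 without day 0 replicate 2. That between the iTreg groups was 0.36 and 0.04 without mTO-iTreg replicates 1 and 2, and 0.32 and 0.11 without TGFβ-iTreg replicates 2 and 3. These genes gave fewer counts, with means over all libraries of 15.8 to 173 normalized counts, against 114 to 866 for cytosolic genes, and down to 2 counts in a library. Their median SE was 0.45, against 0.22, so equal changes are harder to detect, and whether the classes differ in how often they change was not tested.

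Tars2, the threonine enzyme (chromosome 3, 95739976 to 95760206, minus strand), had 233, 236 and 254 normalized counts in mTO-iTreg libraries, 98.4, 112 and 119.6 in TGFβ-iTreg libraries, and 125, 139.8 and 135 in day 0 libraries. The 3 groups did not overlap, with mTO-iTreg highest and TGFβ-iTreg lowest. The mTO-iTreg mean was 1.81-fold that of day 0 (log2 difference 0.85 ± 0.21 SE, limma adjusted p = 0.00622) and 2.19-fold that of TGFβ-iTreg cells (1.13 ± 0.21 SE, limma adjusted p = 0.0014). Lars2, the leucine enzyme, had 357, 208 and 212 in mTO-iTreg libraries, 157, 121 and 110.2 in TGFβ-iTreg libraries, and 158, 105 and 126 in day 0 libraries. Its mTO-iTreg libraries were above all others (limma adjusted p = 0.0135 against day 0 and 0.0177 against TGFβ-iTreg), but without mTO-iTreg replicate 1, its highest library, neither call held (0.074 and 0.092). Without TGFβ-iTreg replicate 2 or 3 the comparison with TGFβ-iTreg cells gave 0.053 and 0.066.

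Other mitochondrial genes were variable. Aars2 had 19.8, 26.1 and 36.5 normalized counts in mTO-iTreg libraries, against 10.5, 24.2 and 2.11 in day 0 libraries (log2 difference 1.52 ± 0.74 SE, limma adjusted p = 0.128). Without day 0 replicate 2 it was called (2.21, adjusted p = 0.035). Wars2 had 38.9, 21.1 and 34.5 in mTO-iTreg libraries, against 70.2, 37.6 and 83.3 in day 0 libraries, a mean 0.494-fold that of day 0 with no call (limma adjusted p = 0.119). Sars2 had 14.3, 138 and 95.7 across the mTO-iTreg libraries, a spread wider than the differences between its group means.

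For 14 amino acids both a cytosolic and a mitochondrial gene were compared (Eprs with Ears2 for glutamate). In mTO-iTreg cells against day 0, the cytosolic gene had the more positive log2 difference in 11 of 14 pairs, with a median gap of 1.61. In TGFβ-iTreg cells against day 0 it did so in 12 of 14, with a median gap of 0.63, and in mTO-iTreg against TGFβ-iTreg cells in 9 of 14, with a median gap of 0.26. The gap was widest for cysteine and tryptophan: Cars stood at 2.08 and Cars2 at -0.51 ± 0.38 SE, and Wars at 1.46 and Wars2 at -0.96 ± 0.45 SE. Leucine ran the other way, with Lars at -0.04 and Lars2 at 0.97, and threonine was level, with Tars at 0.79 and Tars2 at 0.85.

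**Figure D3:**
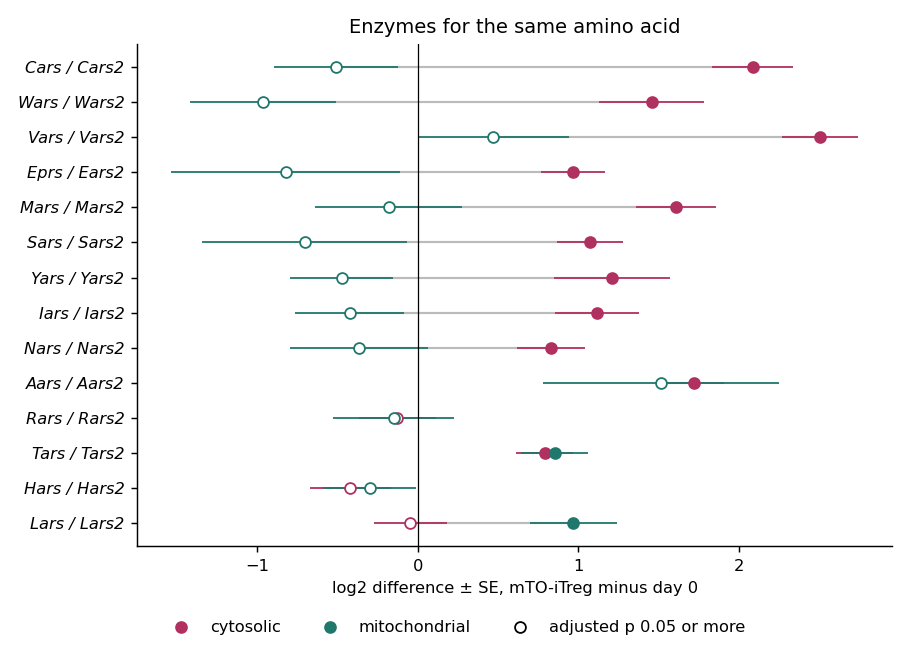
Log2 difference ± SE of mTO-iTreg minus day 0 for the cytosolic and the mitochondrial enzyme of the same amino acid, 14 pairs ordered by the gap between them. Filled points have a limma adjusted p under 0.05; in 11 pairs the cytosolic point lies to the right.

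Summed over each class, the differences were compact. The 20 cytosolic genes summed to 8215, 10044 and 9485 normalized counts in mTO-iTreg libraries, 6429, 5789 and 5463 in TGFβ-iTreg libraries, and 5148, 5164 and 5301 in day 0 libraries. No groups overlapped. The mTO-iTreg mean was 1.78-fold that of day 0 and 1.57-fold that of TGFβ-iTreg cells, and the TGFβ-iTreg mean was 1.13-fold that of day 0 (1.34-fold if libraries are scaled to equal totals). The 17 mitochondrial genes summed to 1333, 1341 and 1179.7 in mTO-iTreg libraries, 1008, 957 and 935 in TGFβ-iTreg libraries, and 1174, 1148 and 1188 in day 0 libraries. The mTO-iTreg and day 0 libraries overlapped, and the TGFβ-iTreg libraries were lower than both. With equal totals neither held: the mitochondrial sums were then 1228 to 1437 in mTO-iTreg, 1008 to 1045 in TGFβ-iTreg and 998 to 1120 in day 0 libraries, so that mTO-iTreg lay above both other groups, which overlapped. The cytosolic sum over the mitochondrial sum was 6.16, 7.49 and 8.04 in mTO-iTreg libraries, 6.38, 6.05 and 5.84 in TGFβ-iTreg libraries, and 4.39, 4.50 and 4.46 in day 0 libraries. This ratio does not depend on the scaling of libraries, and it was higher in each iTreg library than in each day 0 library. Within the mTO-iTreg group, replicate 1 had the lowest value for 14 of 20 cytosolic genes. The sums are a description and carry no test.

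**Figure D4:**
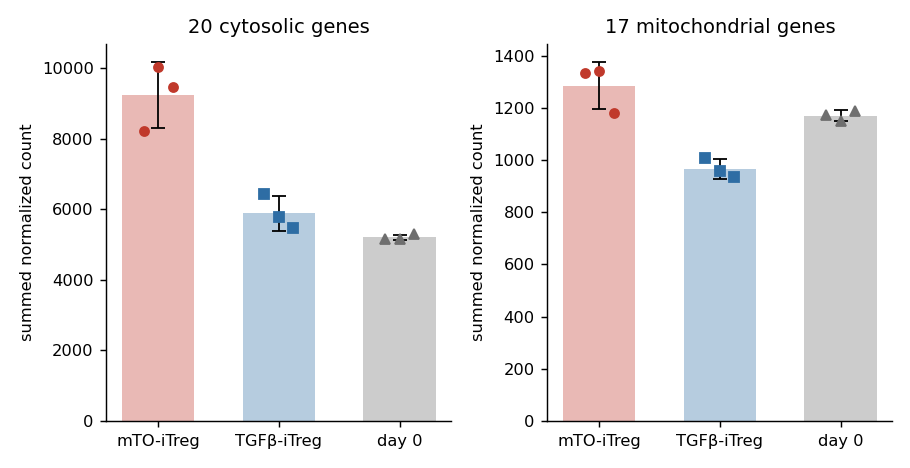
Summed normalized counts of the 20 cytosolic genes (left) and 17 mitochondrial genes (right) in mTO-iTreg, TGFβ-iTreg and day 0 cells. Bars are means, error bars SD over 3 libraries and points single libraries; the cytosolic sums do not overlap between groups, at 8215 or more in mTO-iTreg, 5463 to 6429 in TGFβ-iTreg and 5301 or less in day 0 libraries.

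Partner proteins of the synthetases were called in numbers near the shares of all genes. Of 14 listed genes 13 were in the table and 12 were tested; 3 rose in mTO-iTreg against day 0 (19.4% of all genes did), 1 rose and 1 fell in TGFβ-iTreg against day 0 (9.78% and 8.8%), and 1 was higher in mTO-iTreg than in TGFβ-iTreg cells (14.9%). Aimp1, a scaffold of the multi-synthetase complex, had 572, 470.2 and 565 normalized counts in mTO-iTreg libraries, 477, 456 and 512 in TGFβ-iTreg libraries, and 259.7, 253 and 277 in day 0 libraries. It rose in both iTreg groups (limma adjusted p = 0.000199 and 0.00159 for mTO-iTreg and TGFβ-iTreg), while the scaffolds Aimp2 and Eef1e1 were called in no comparison. Aarsd1, an alanyl-tRNA editing protein, was 2.88-fold day 0 in mTO-iTreg cells (limma adjusted p = 0.00313) and 2.25-fold TGFβ-iTreg cells (0.0192), where the call was lost without mTO-iTreg replicate 1 (0.083) or 2 (0.058) or TGFβ-iTreg replicate 1 (0.062). Gatc and Qrsl1 encode subunits of the mitochondrial amidotransferase that makes glutaminyl-tRNA. Gatc was called higher in mTO-iTreg cells (limma adjusted p = 0.0361) with overlapping libraries, and not without mTO-iTreg replicate 1 (0.126) or 2 (0.133) or day 0 replicate 2 (0.1003) or 3 (0.122). Qrsl1 fell to 0.414-fold the day 0 mean in TGFβ-iTreg cells (limma adjusted p = 0.0217), a call lost without TGFβ-iTreg replicate 1 (0.071) or 2 (0.057) or day 0 replicate 2 (0.063) or 3 (0.054).

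Genes of the amino acid stress response were read in the same libraries. Atf4 had 1337, 1476 and 1698 normalized counts in mTO-iTreg libraries, 421, 424 and 486 in TGFβ-iTreg libraries, and 542, 782 and 732 in day 0 libraries. It was higher in mTO-iTreg cells than in day 0 cells (log2 difference 1.14 ± 0.16 SE, limma adjusted p = 0.000126) and lower in TGFβ-iTreg cells than in day 0 cells (-0.61 ± 0.16 SE, limma adjusted p = 0.0182). That fall was not called with equal totals (adjusted p = 0.144), nor without TGFβ-iTreg replicate 1 (0.062) or 2 (0.059) or day 0 replicate 2 (0.073) or 3 (0.058). Asns, asparagine synthetase, had 220.3, 248 and 256 in mTO-iTreg libraries, 7.38, 14.2 and 7.90 in TGFβ-iTreg libraries, and 0, 2.69 and 1.05 in day 0 libraries, the last from 2 counts in all. Ddit3 and Chac1, which ATF4 is known to raise, were also called higher in mTO-iTreg cells against both other groups. Trib3, another, was called against day 0 and, at a limma adjusted p of 0.0454, against TGFβ-iTreg cells, the second call being lost without any 1 of mTO-iTreg replicates 2 and 3 or TGFβ-iTreg replicates 1, 2 and 3 (0.077 to 0.180). Eif2ak4, the kinase that senses uncharged tRNA, was not called (limma adjusted p = 0.292 against day 0). The list of 6 was taken with earlier results known. Nothing here tests whether ATF4 acts on the synthetase genes.

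Markers of other cell types were also read, and of the iTreg groups only mTO-iTreg was cultured with organoids. Of 14 epithelial markers 8 were in the table, and they summed to 34.1 to 147 normalized counts in mTO-iTreg, 138 to 152 in TGFβ-iTreg and 13.7 to 18.8 in day 0 libraries. Epcam and Cdh1 made up most of this and were called higher than day 0 in both iTreg groups. In mTO-iTreg cells the Epcam call (limma adjusted p = 0.0165) was lost without mTO-iTreg replicate 3 (0.088) or day 0 replicate 1 (0.057), and the Cdh1 call (0.0234) without mTO-iTreg replicate 1 (0.058) or 3 (0.090) or day 0 replicate 2 (0.072). Cldn4 and Lgr5 were at 0 in every mTO-iTreg library. In mTO-iTreg replicate 3, Elf3 was at 31.9 and Krt18 at 4.65 normalized counts, and both were at 0 in mTO-iTreg replicates 1 and 2. Elf3 was also at 14.8 in TGFβ-iTreg replicate 1. Vil1 and Muc2 had 4 and 1 counts over the mTO-iTreg libraries. Of 12 myeloid and antigen-presenting cell markers 7 were in the table, summing to 1831 to 2979 in mTO-iTreg, 205 to 474 in TGFβ-iTreg and 796 to 7393 in day 0 libraries, and Itgax was at 0 in every mTO-iTreg library. Of the 6 tested, 1 was called higher and 2 lower in mTO-iTreg cells against day 0, where 19.4% of all genes rose and 14.5% fell. Most of the mTO-iTreg sum was the called-higher gene, H2-Eb1, at 1410 to 2331 and 2.22-fold the day 0 mean. The other genes of antigen presentation, H2-Aa, H2-Ab1 and Cd74, were at 0.106-fold, 0.224-fold and 0.397-fold, H2-Aa and H2-Ab1 being called lower. The H2-Eb1 call (limma adjusted p = 0.0408) was lost without any 1 of mTO-iTreg replicates 1, 2 and 3 or day 0 replicates 1 and 2 (0.059 to 0.178), and the H2-Ab1 call (0.0455) without any 1 of the mTO-iTreg replicates, day 0 replicates 1 and 3 or TGFβ-iTreg replicate 2 (0.053 to 0.191). Of 5 B cell markers 4 were in the table, at 61.1 to 104 in mTO-iTreg, 30.6 to 69.2 in TGFβ-iTreg and 10.5 to 57.0 in day 0 libraries. Cd79b made up most of the mTO-iTreg sum, at 48.5 to 73.0, and was called higher there than in both other groups. Its call against TGFβ-iTreg cells was lost without any 1 mTO-iTreg replicate or TGFβ-iTreg replicate 1 or 3 (limma adjusted p = 0.054 to 0.0995). Cd79a was called in no comparison, at 1.32-fold the day 0 and 0.535-fold the TGFβ-iTreg mean. Whether such cells were present was not tested, nor was their part in the synthetase values.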

How the data were processed

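Bulk RNA of 9 libraries, 3 per group, was re-analysed. Per the submitters' processing notes, the authors used BWA, the mm10 genome and DESeq2. Tool versions, strand handling and any use of molecular identifiers are not stated there or in the labels. The values deposited are normalized counts with decimal commas; a single count was worth 0.494 to 2.69 of them, and 100% of values were whole counts within 0.1. All columns were matched to samples by name. A member is not reported here singly, though counts, medians and sums over the mitochondrial genes include it.

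Of 14912 rows (296 at 0 throughout), 10983 reached 5 in 3 or more libraries and were tested. On log2(value + 1), limma 3.58.1 (R 4.3.3) fitted the means of the 3 groups, with a mean-variance trend in eBayes and 6 residual degrees of freedom. Adjusted p-values are Benjamini-Hochberg over all 10983, with a threshold of 0.05, and the test is two-sided. Log2 differences are on this scale and understate changes of rare genes; folds are ratios of group means of normalized counts, and ± is SD or SE as marked. The fit was tested on simulated data.

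The synthetases, the groupings, the partner, stress and marker lists and the motifs were chosen with earlier results of these data known. Values of every library are given for members among the 8 largest absolute log2 differences of called members in a comparison, and for genes that add to them, chosen after their values were seen. Positions and 3′ ends (last 500 bases) are from GENCODE M21 on GRCm38, similar sequences were sought with BLAST 2.17.0, and promoters are RefSeq's. Python 3.11.15 was used with pandas 2.3.3, matplotlib 3.10.9 and numpy 2.4.6. Libraries of a group differed by more than counting error (chi-square per degree of freedom 7.38 to 25.7), so none was taken as a duplicate. Alternatives changed 1 choice at a time: pseudocount, filter, scaling, groups fitted, replicate block, variance trend, and leaving out each library.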

Additional observations from a re-analysis of the deposited data

How the results depend on the processing

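Over 22 alternatives the number of synthetase genes called ranged from 13 to 17 in mTO-iTreg against day 0 (16 as reported), 4 to 9 in TGFβ-iTreg against day 0 (6) and 10 to 14 in mTO-iTreg against TGFβ-iTreg (14). Without 1 library in turn the ranges were 13 to 17, 4 to 6 and 10 to 14. Of 36 calls, 25 held under every alternative (12, 4 and 9 by comparison), and no called member changed sign; 60 calls ended and 19 were gained over 2439 recomputed values, and 95 values without a call changed sign. Scaling to equal totals moved the median log2 difference of all genes to 0.31 against day 0 in mTO-iTreg (0.09 as reported) and 0.23 in TGFβ-iTreg (-0.02 as reported), and quantile normalization moved it to -0.07 in mTO-iTreg. Relative to that median, the cytosolic median stayed at 0.74 to 0.89 in mTO-iTreg and 0.31 to 0.32 in TGFβ-iTreg over 4 scalings. Calls of all genes split 2126 up and 1597 down in mTO-iTreg against day 0 as reported, 2739 and 1141 with equal totals, 1892 and 1971 with quantile normalization and 1670 and 1812 with limma-voom; in TGFβ-iTreg they split 1074 and 966, and 1793 and 582 with equal totals; in mTO-iTreg against TGFβ-iTreg 1632 and 1292, and 1336 and 1576 with TMM factors.

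With equal totals the cytosolic sum was 2.08-fold day 0 in mTO-iTreg and 1.34-fold in TGFβ-iTreg, and the mitochondrial sum 1.28-fold and 0.980-fold; with TMM factors the mitochondrial sum in TGFβ-iTreg was 0.868-fold. Genes of the whole table called in TGFβ-iTreg against day 0 numbered 2040 as reported, 1355 without a variance trend, and 1166 without the shallowest TGFβ-iTreg and day 0 libraries. The labels do not say whether replicate numbers pair libraries. Same-number libraries had correlations of -0.05 to 0.06 around their group means, and 5 of 9 were closest to their own number. With 3 libraries per group this cannot settle whether they are paired. With the replicate block 16, 6 and 13 synthetase genes were called, Hars being lost. Chosen after seeing the data were limma-voom on recovered counts, equal totals leaving out Rn45s and mitochondrial RNAs, and removal of the shallowest library of the TGFβ-iTreg and day 0 groups together. Planned count tests with edgeR and DESeq2 on recovered counts were not run.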

Other observations

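The gene end that meets Fars2, the mitochondrial phenylalanine enzyme, belongs to Nrn1 on the opposite strand. Nrn1, which encodes a membrane-anchored protein first described in neurons, had means of 64.9, 911 and 92.2 normalized counts in mTO-iTreg, TGFβ-iTreg and day 0 cells, and was called higher in TGFβ-iTreg cells than in day 0 cells (log2 difference 3.19 ± 0.30 SE, limma adjusted p = 1.56e-05). Fars2 had means of 36.6, 34.6 and 34.6 in the same groups, and was called in no comparison. The end of Mars meets that of Ddit3 in the same opposite arrangement, and there both genes were called higher in mTO-iTreg cells. Farsb meets Sgpp2 and Yars meets C77080, and these neighbours had at most 5.38 and 4.07 normalized counts in any library. Rab3gap2, which overlaps the end of Iars2, was called in no comparison.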
